A study of Oryza sativa with 16 samples.

Results

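The chromosome 12 regions are places on rice chromosome 12 where chromatin pulled down with an antibody against OsHOX24 gave a called peak. Every summit on that chromosome in 8 ChIP-seq lists was taken, except those at positions 5600001 to 5700000, and summits up to 200 bp apart were merged. This gave 1571 summits in 650 regions, of 29565 summits in 16193 regions on the 12 nuclear chromosomes. The lists came from seedlings 3 weeks old of wild type (WT) and of the OsHOX24 over-expression line H49. They were kept in water (control) or left to dry for 3 h (desiccation), and each of the 4 combinations of genotype and treatment had 2 libraries. H49 is a single transgenic line, no source used here names the promoter of its transgene, and WT carries the endogenous gene, so no group lacks the antigen.

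OsHOX24 belongs to the homeodomain-leucine zipper (HD-Zip) family, which is found only in plants. The homeodomain of such a protein contacts DNA, the leucine zipper holds a pair of the proteins together, and the dimer binds a short, nearly palindromic AT-rich site. Members of HD-Zip subfamily I are known as regulators of responses to water deficit and abscisic acid. A summit is the position of the highest enrichment within a peak. The value given with it is taken as −log10 of the peak caller's p, although the lists do not state whether it is a p or a q. It grows with sequencing depth, so strength is given here as a percentile within the library's own list, where 100 is the strongest summit. The seedlings were used whole, so binding in fewer cells and weaker binding per cell cannot be told apart.

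The lists held 2193 to 9348 summits, and read depth is unknown. WT control replicate 1 had the longest list. Chromosome 12 gave 316 summits in that library and 151 to 206 in the other libraries. WT desiccation replicate 1 stood apart in where its chromosome 12 summits lay, as described below, and results that rest on it are given with and without it. The replicate numbers also went together with position: the density differences between replicates 1 and 2 correlated between groups, so values are compared within a number as well.

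Chromosome 12 summits were concentrated in 3 places, and much of the chromosome held none. The densest bin of 100 kb was 13.3 to 13.4 Mb, with 18.1% ± 6.71 (SD, n = 8) of a library's chromosome 12 summits. Next were 13.4 to 13.5 Mb with 7.61% ± 2.94, 20.6 to 20.7 Mb with 7.05% ± 5.57, 8.5 to 8.6 Mb with 7.05% ± 1.53, and 20.5 to 20.6 Mb with 4.89% ± 3.50. Of 274 bins of 100 kb, 128 held no summit in any library and 21 held one in all 8. The stretch from 13.3 to 13.5 Mb is called the 200-kb stretch, that from 20.4 to 20.8 Mb the 400-kb stretch, and the bin from 8.5 to 8.6 Mb the 100-kb bin. Together they make up 2.56% of the chromosome's length and held a median of 53.2% of a library's chromosome 12 summits, from 25.6% in WT control replicate 1 to 63.4% in WT desiccation replicate 1. These places were chosen because they are dense, so their density is a description and not a tested result.

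In bins of 1 Mb the highest shares were 27.2% ± 9.99 at 13 to 14 Mb, 18.1% ± 12.4 at 20 to 21 Mb and 7.58% ± 1.63 at 8 to 9 Mb. The lowest was 0.187% ± 0.272 at 18 to 19 Mb, where 3 summits were called over all 8 libraries. The ends of the chromosome lay between these extremes, at 3.85% ± 1.44 for the first Mb and 2.45% ± 0.945 for the bin that starts at 27 Mb. The latter bin is partial, as the highest summit lay at position 27405293. Its share is thus not comparable with that of a full Mb, and the 2 ends are not ranked by density. Outside the 3 dense places the regions numbered 429, or 16.1 per Mb, against 355 per Mb in the 200-kb stretch, 312.5 in the 400-kb stretch and 250 in the 100-kb bin.

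**Figure D1:**
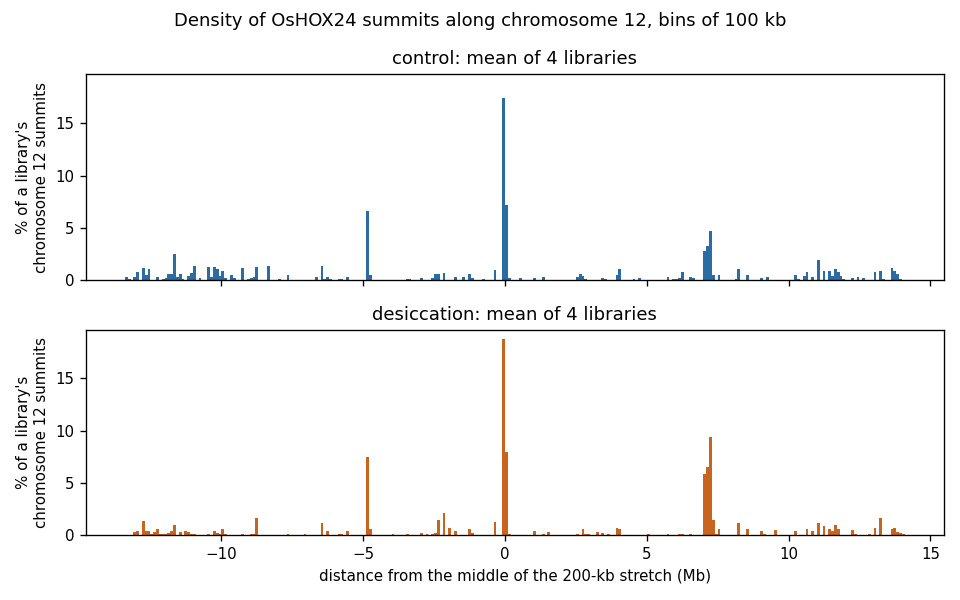
Mean share of a library's chromosome 12 summits (%, vertical axis) in bins of 100 kb against distance from the middle of the 200-kb stretch (Mb), for the 4 control libraries (upper panel) and the 4 desiccation libraries (lower panel). The tallest bars lie at the 200-kb stretch, at the 100-kb bin to its left and at the 400-kb stretch to its right, under both treatments.

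As a whole, 6.06% ± 1.57 (SD, n = 8) of the nuclear summits in a library came from chromosome 12, which made up 7.33% of the length, taken from the highest summit position of each chromosome. The difference of −1.27 percentage points did not pass (exact two-sided sign-flip permutation p = 0.0625, adjusted 0.0625 over 2 such tests), with 2 of 8 libraries above the length share. Its sign depended on which summits were kept: the difference was 2.05 in the upper 50% of each list and 0.317 with the 2000 strongest summits of each list. Without the 3 dense places the remaining 26605 kb held 2.91% ± 0.458 of the nuclear summits and lay below their length share by 4.15 percentage points (exact two-sided sign-flip permutation p = 0.00781, adjusted 0.0156). That comparison was chosen after the data were seen, and leaving out dense bins lowers a share by construction.

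The strongest chromosome 12 region was Chr12:1793314-1793552, in the bin from 1 to 2 Mb. Its within-list percentile averaged 99.8 ± 0.249 (SD, n = 8), and it was the first of its list in H49 control replicate 1. Its ranks in the 8 lists ran from 1 to 18 with a median of 4.5. The −log10 p was 220 and 194 in WT control, 105 and 328 in H49 control, 63.3 and 126 in WT desiccation and 90.0045 and 162 in H49 desiccation. Control libraries ran from 105 to 328 and desiccation libraries from 63.3 to 162, so the treatments overlapped, in values that are not comparable between libraries.

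Chr12:21960278-21960523 followed, with a mean percentile of 99.3 ± 0.467 and ranks from 13 to 58. Its −log10 p was 98.1 and 162 in WT control, 60.9 and 136 in H49 control, 36.8 and 130 in WT desiccation and 62.2 and 119 in H49 desiccation. The third, Chr12:8557162-8557385, lies in the 100-kb bin and had a mean percentile of 99.2 ± 0.664 with ranks from 8 to 78. In all 3 of these regions the percentile stayed above 97 in every library, so they were among the strongest summits under both treatments and in both genotypes.

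Of the 10 regions with the highest mean percentile among those called in all 8 libraries, 5 lay in the 200-kb stretch. They were Chr12:13342367-13342583 (mean percentile 98.7 ± 0.819), Chr12:13410403-13410675 (98.4 ± 1.44), Chr12:13382366-13382584 (98.3 ± 1.22), Chr12:13351210-13351430 (98.2 ± 0.921) and Chr12:13404692-13404900 (98.1 ± 1.39). The other 2 of the 10 were Chr12:4678426-4678643, at 98.2 ± 0.618, and Chr12:8655838-8656064, at 98.1 ± 2.12. The last of these had the widest SD of percentile among the first 10: it was the 2nd summit of WT desiccation replicate 2 and the 3rd of WT desiccation replicate 1 but the 202nd of WT control replicate 2. Its −log10 p was 125 and 74.8 in WT control, 42.1 and 108 in H49 control, 85.4 and 233 in WT desiccation and 57.5 and 97.1 in H49 desiccation.

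**Figure D2:**
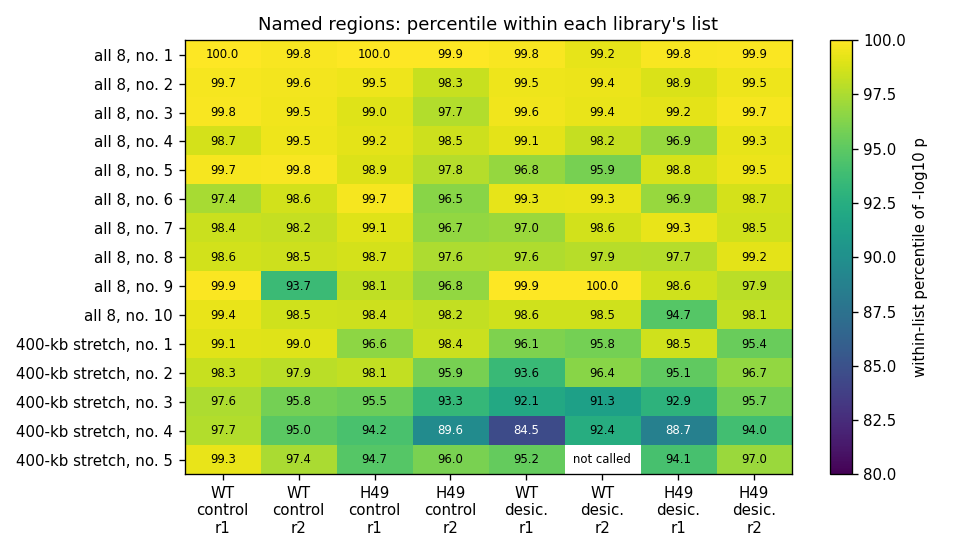
Within-list percentile of −log10 p (colour and printed value, 100 is the strongest summit of a list) for the first 10 regions called in all 8 libraries and for the 5 named regions of the 400-kb stretch (rows, in the order of the text's ranking), in each of the 8 libraries (columns; r1 and r2 are the replicates). The first 10 rows lie above 93 in every library, and the rows of the 400-kb stretch are lower in most libraries.

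Counts among the 100 strongest summits were made for chromosome 12 alone, so no other chromosome is compared. Chromosome 12 held a larger share of them than of all nuclear summits of a library, where its share was 3.38% to 8.22%. Of the 100 strongest summits of a list, it held 15 in WT control replicate 1, 17 in H49 control replicate 2, 24 in H49 control replicate 1 and 28 to 30 in the other 5 libraries, a mean of 25.1 ± 5.96 (SD, n = 8). Of these, 8 to 23 lay in the 3 dense places. The median chromosome 12 summit stood at percentile 60.9 in WT control replicate 1 and at 83.7 to 89.4 in the other 7 libraries. Within the 200-kb stretch the median percentile of a library was 90.3 to 97.0, and in the rest of the chromosome outside the dense places it was 47.9 to 63.0. Of the chromosome 12 summits among the 100 strongest, the dense places held the lowest shares in H49 control replicate 2 (8 of 17) and WT control replicate 1 (9 of 15), and the 2 regions with the highest mean percentile lie outside them.

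The 200-kb stretch held 71 regions between positions 13303664 and 13445251, with a median gap of 564 bp between neighbours. No summit lay between 13.2 and 13.3 Mb in any library. Of the 71 regions, 46 (64.8%) were called in at least 6 libraries, 19 in all 8 and 13 in only 1. In the regions called in all 8, the summits of the different libraries lay within a median of 26 bp of each other, from 8 to 116 bp. The same span was 45 bp in the 15 regions common to all 8 outside the dense places and 74 bp in those of the other chromosomes.

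By library, the 200-kb stretch gave 44 and 57 summits in WT control, 45 and 56 in H49 control, 20 and 63 in WT desiccation and 46 and 51 in H49 desiccation. The number thus stayed between 44 and 63 in 7 libraries although their lists differed from 2193 to 9348 summits, and WT desiccation replicate 1 was the exception. All 20 regions that WT desiccation replicate 1 called there were also called in at least 4 other libraries. It was the only library missing from 15 regions of the stretch that the other 7 shared, and from 19 of the 27 such regions on the whole chromosome.

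The replicate number separated the libraries in this stretch. Replicates 2 of the 4 groups had 28.1% to 36.2% of their chromosome 12 summits there, and replicates 1 had 10.9% to 26.0%, so the ranges did not overlap. The labels do not say what a replicate number stands for, and its part in the other results was not tested beyond the values within a number given here. By treatment the share in the 2 bins that meet at 13.3 Mb, as fixed for the comparison, was 17.4% ± 6.78 in control and 18.7% ± 7.61 in desiccation (n = 4 each). The difference of 1.33 percentage points did not pass (exact two-sided permutation p = 0.8286, adjusted 0.8286 over 5 share comparisons). It turned negative, to −1.30, −0.472 and −0.594, without WT control replicate 1, WT desiccation replicate 2 and H49 desiccation replicate 2, and rose to 4.84 without WT desiccation replicate 1 and to 4.02 without WT control replicate 2. It fell to 0.547 without H49 control replicate 1 and was 2.06 without H49 control replicate 2. Within a replicate number, desiccation minus control was −1.30 (WT) and 3.03 (H49) percentage points among replicates 1. Among replicates 2 it was −1.32 and 4.91, so the sign differed between the genotypes. That difference between genotypes was not tested.

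The 400-kb stretch was less constant. Its 125 regions lay between positions 20452567 and 20705080; 74 of them (59.2%) were called in 1 library and 4 in all 8. WT desiccation replicate 1 alone accounted for 50 of those 74. The regions with the most calling libraries were Chr12:20572151-20572391 (mean percentile 97.4 ± 1.53, n = 8), Chr12:20678487-20678697 (96.5 ± 1.65), Chr12:20472470-20472743 (94.3 ± 2.17) and Chr12:20463965-20464281 (92.0 ± 4.18). Chr12:20676599-20676869, at 96.3 ± 1.80 over 7 libraries, was missing from WT desiccation replicate 2. The lowest single percentile among these 5 was 84.5, for Chr12:20463965-20464281 in WT desiccation replicate 1, where its −log10 p was 9.93 against 24.8 to 87.6 elsewhere.

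Summits in the 400-kb stretch numbered 24 and 15 in WT control, 40 and 18 in H49 control, 85 and 22 in WT desiccation and 39 and 18 in H49 desiccation. As a share of chromosome 12 summits this was 7.59% and 9.09%, 19.4% and 9.05%, 46.4% and 12.6%, and 22.0% and 11.9%. Desiccation libraries averaged 23.3% ± 16.1 and control libraries 11.3% ± 5.46 (n = 4 each). The groups overlapped, and the difference of 11.97 percentage points did not pass (exact two-sided permutation p = 0.171, adjusted 0.333). Without WT desiccation replicate 1 it was 4.25. Within a replicate number, desiccation exceeded control by 38.9 (WT) and 2.62 (H49) percentage points among replicates 1 and by 3.55 and 2.88 among replicates 2. With permutation kept within replicate numbers the p was 0.0556, the smallest that scheme allows, and 0.139 after adjustment. The median percentile of the 85 summits of WT desiccation replicate 1 in the stretch was 85.5, against 92.4 to 98.1 in the other 7 libraries, whose lists differ in length.

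The 100-kb bin was nearly constant in number. Its summits numbered 13 and 13 in WT control, 15 and 14 in H49 control, 11 and 14 in WT desiccation and 12 and 14 in H49 desiccation. All of them lay between positions 8527540 and 8560206, in 25 regions of which 9 were called in at least 6 libraries and 2 in all 8. Besides the strong region at Chr12:8557162-8557385, the other common to all 8 was Chr12:8559976-8560206, named after its values were seen, at a mean percentile of 96.0.

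**Figure D3:**
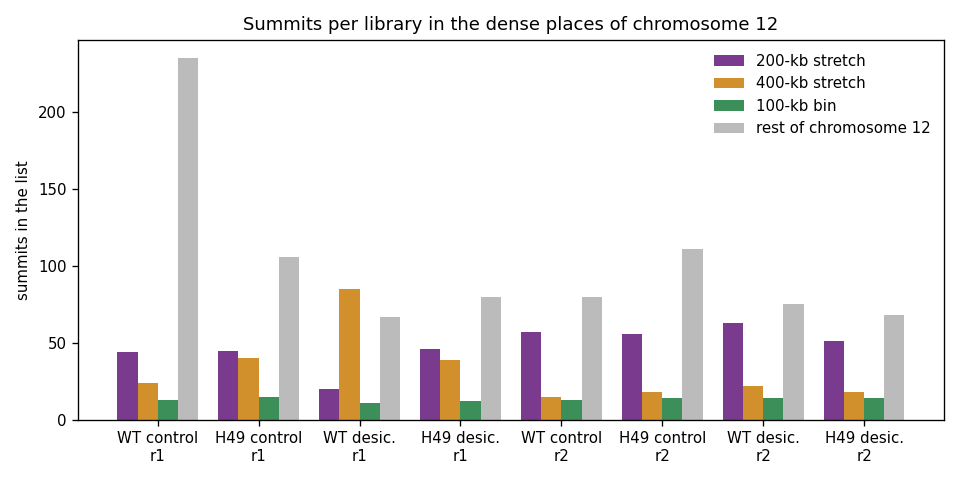
Number of summits per library (vertical axis) in the 200-kb stretch, the 400-kb stretch, the 100-kb bin and the rest of chromosome 12, with the 4 replicates 1 on the left and the 4 replicates 2 on the right. WT desiccation replicate 1 has 85 summits in the 400-kb stretch and 20 in the 200-kb stretch, and the bars of the 100-kb bin stay between 11 and 15.

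Chromosome 12 regions were found again in other libraries more often than regions elsewhere. Of the 650, 358 (55.1%) were called in 1 library, against 65.1% of the 15543 regions on the other 11 chromosomes. At the other end, 90 (13.8%) were called in at least 6 libraries, against 4.25% elsewhere. All 8 libraries called 40 regions, 6.15% of those on chromosome 12, against 1.69% of all regions; this was 14.7% of all regions common to the 8 libraries. In a library, 48.7% ± 12.03 (SD, n = 8) of the chromosome 12 regions were also called in at least 4 of the other 7 libraries, against 28.2% ± 8.36 of its regions elsewhere. The difference of 20.5 ± 8.78 percentage points was positive in 8 of 8 libraries (exact two-sided sign-flip permutation p = 0.00781, the smallest possible, adjusted 0.0156). The libraries score each other, so this p measures how constant the difference was.

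With the dense places of chromosome 12 left out the difference was 1.89 percentage points. This value was added after the data were seen and is a description only: the places were chosen as dense over these libraries, so leaving them out removes recurrent regions by construction, and the other chromosomes kept their dense bins. In the dense places 29.9% of 221 regions were called in at least 6 libraries. In the rest of the chromosome the number was 24 of 429 regions (5.59%), of which 15 were called in all 8. The per-library difference was smallest in WT desiccation replicate 1, at 2.20 percentage points, and 15.9 to 29.5 in the other 7; without that library the mean was 26.0. Leaving it out also raised the regions called in every library from 40 to 59.

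**Figure D4:**
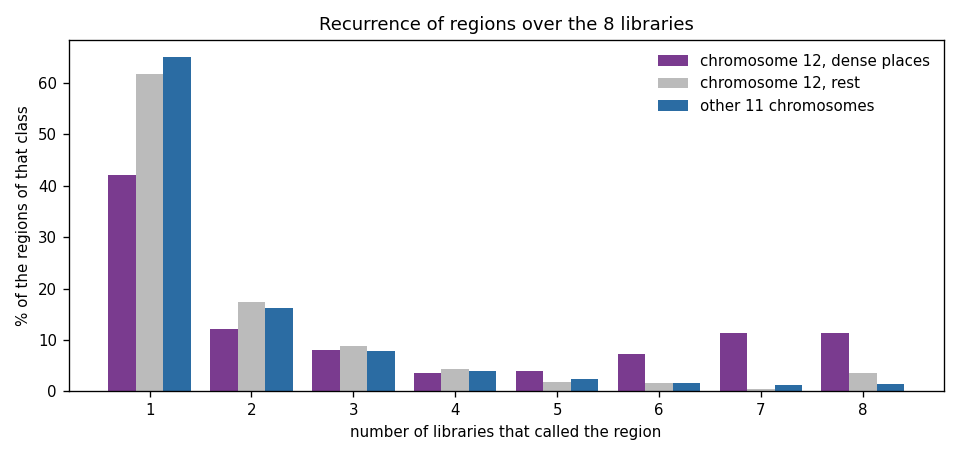
Share of regions (%, vertical axis) by the number of libraries that called them (horizontal axis), for the 221 chromosome 12 regions in the 3 dense places, the 429 in the rest of the chromosome and the 15543 on the other 11 chromosomes. The dense places have 11.3% of their regions at 7 and 11.3% at 8 libraries, and the 2 other sets are lowest at 7.

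The common regions outside the dense places were spread along the chromosome. Beside those named above they included Chr12:13052862-13053099 (mean percentile 97.3), Chr12:21600062-21600308 (96.7) with its neighbour Chr12:21600597-21600836 (93.4), Chr12:17346872-17347147 (96.3) and Chr12:26430259-26430548 (94.0). The weakest of them was Chr12:3437566-3437877, at 52.5. The choice of these 6 was made after seeing their values. Similarity between libraries was also higher on chromosome 12, taken over all its regions with the dense places included. No value is given here without those places. The Jaccard index is the number of regions in both libraries divided by the number in at least 1 of them. It averaged 0.299 ± 0.0926 over the 4 replicate pairs, against 0.179 ± 0.0630 on the other chromosomes. For the 24 pairs from different groups it was 0.333 ± 0.0977, against 0.181 ± 0.0541. As a description, replicates of a group were thus not more alike than other pairs. The highest index on chromosome 12 was 0.519, between WT control replicate 2 and H49 desiccation replicate 2.

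The effect of desiccation was examined through the share of a library's summits that fell on chromosome 12. It was 3.38% and 5.24% in WT control, 4.86% and 5.89% in H49 control, 6.80% and 8.22% in WT desiccation and 7.62% and 6.48% in H49 desiccation. Every desiccation library lay above every control library, 7.28% ± 0.791 against 4.84% ± 1.06 (SD, n = 4 each). The difference of 2.44 percentage points had an exact two-sided permutation p of 0.0286, the smallest that 4 against 4 allows, and did not pass after adjustment (0.143 over 5 share comparisons). Over the 12 chromosomes its adjusted p was 0.229, and 0% of the 12 chromosomes passed.

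The number of chromosome 12 summits itself was not higher in desiccation: it was 171 ± 14.01 in desiccation and 222 ± 65.5 in control (SD, n = 4 each), while the lists held 2397 ± 210 and 5038 ± 2910 summits. With the 2000 strongest summits of each list, ties kept, the shares were 5.84% and 7.12% in WT control, 7.48% and 8.22% in H49 control, 8.13% and 8.78% in WT desiccation and 8.47% and 7.21% in H49 desiccation. The groups then overlapped and the difference was 0.980 (exact two-sided permutation p = 0.2, adjusted 0.629). In the upper 50% of each list, which keeps the lengths unequal, it was 4.43. Within replicate numbers desiccation was higher in 4 of 4 comparisons on the whole lists, by 3.42 (WT) and 2.76 (H49) percentage points among replicates 1 and by 2.98 and 0.583 among replicates 2. The p was 0.0556 with permutation kept within numbers, the smallest possible, and 0.139 after adjustment. These values are for the whole lists. With the 2000 strongest summits, H49 desiccation replicate 2 lay below H49 control replicate 2, at 7.21% against 8.22%. The other pairs within a number kept the higher share in desiccation.

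**Figure D5:**
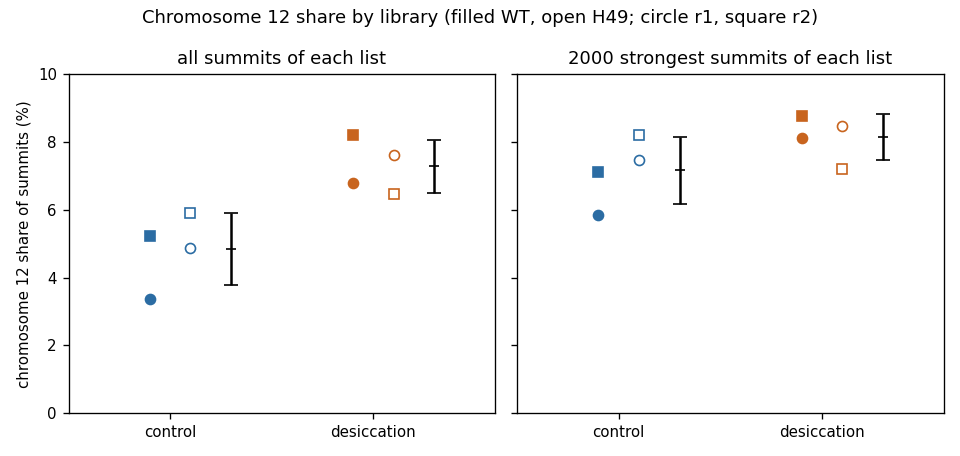
Chromosome 12 share of a library's nuclear summits (%, vertical axis) for control and desiccation libraries, from whole lists (left) and from the 2000 strongest summits of each list (right). Filled points are WT, open points H49, circles replicates 1 and squares replicates 2; the bars show mean ± SD of 4 libraries, which lie apart on the left (4.84% and 7.28%) and overlap on the right.

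Outside the 400-kb stretch and the 2 bins that meet at 13.3 Mb, chromosome 12 held 4.24% ± 0.889 of the nuclear summits in desiccation and 3.41% ± 0.592 in control. The difference of 0.835 percentage points did not pass (exact two-sided permutation p = 0.2, adjusted 0.333). It was 0.517 without WT desiccation replicate 2. Within a replicate number it was 0.282 (WT) and 1.38 (H49) among replicates 1 and 1.77 and −0.0878 among replicates 2. With all 3 dense places left out, an alternative added after the data were seen, the difference was 0.388. Within a number it was then −0.0243 (WT) and 0.943 (H49) among replicates 1 and 1.005 and −0.371 among replicates 2. The sign was thus not constant. Genotype was compared in the same way. H49 libraries held 6.21% ± 1.15 of their summits on chromosome 12 and WT libraries 5.91% ± 2.08, a difference of 0.303 percentage points (exact two-sided permutation p = 0.8286, adjusted 0.8286). Its sign turned to −0.540 without WT control replicate 1 and to −0.166 without H49 desiccation replicate 1. It was 1.07 without WT desiccation replicate 2, 0.754 without H49 control replicate 1, 0.600 without WT desiccation replicate 1 and 0.0786 without WT control replicate 2.

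In bins of 1 Mb, 1 of 28 chromosome 12 bins (3.57%) had a higher share of nuclear summits in every desiccation library than in any control library, against 1.32% of the 378 bins of all chromosomes. It was 8 to 9 Mb, at 0.590% in desiccation and 0.354% in control, although its summits numbered 12 to 15 and 14 to 16. Another 1 of 28 (3.57%) had a lower share in every desiccation library, against 6.08% of all bins. This was 5 to 6 Mb without its left-out part, with 8, 2, 7 and 2 summits in the control libraries and 0, 0, 1 and 0 in the desiccation libraries. The left-out part held 1, 16, 0 and 4 summits in the same control libraries and 0, 56, 14 and 28 in the desiccation libraries. The lower share is thus that of the kept part only and does not hold for the whole Mb. Each result rests on 1 bin, so no more is read from it.

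Regions that the 2 libraries of a group shared are called confident. In water there were 98 for WT and 107 for H49, and after drying 57 for WT and 92 for H49. In that order these were 15.1%, 16.5%, 8.77% and 14.2% of the chromosome 12 regions, where the same rule called 9.14%, 8.81%, 3.29% and 5.76% of all regions. The WT desiccation count needs WT desiccation replicate 1, the library that alone missed 19 of the 27 regions found in exactly 7 libraries, and with 1 library left in that group it has no value without it. The dense places held 61.4% to 69.6% of a group's confident regions, against 34% of all chromosome 12 regions. They were chosen as dense over these same libraries, so this is a description only. In WT, 46 regions were confident under both treatments and in H49, 73. In control, 74 were confident in both genotypes and in desiccation, 43. The same counts were not made over all regions, so no share is set beside them. The 46 and the 43 also need WT desiccation replicate 1. In WT, 14 regions confident in control lacked a summit in both desiccation libraries (2.15%, against 3.56% of all regions) and 3 in the opposite direction (0.462%, against 0.222%). H49 had 11 (1.69%, against 3.37%) and 9 (1.38%, against 1.56%). None of these regions lay in the 200-kb stretch. All 3 WT desiccation regions lay in the 400-kb stretch, where WT desiccation replicate 1 had 85 summits. These 3 too have no value without that library. The percentages for regions lacking a summit in the other treatment are of all regions, confident or not. Of the confident regions, in the same order, they were 14 of 98, 3 of 57, 11 of 107 and 9 of 92 on chromosome 12. Over all chromosomes they were 576 of 1480, 36 of 532, 546 of 1427 and 252 of 932.

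Control-only regions, with a summit in 3 or 4 control libraries and 0 of 4 desiccation libraries, numbered 8 on chromosome 12, or 1.23%, against 2.67% of all regions. The strongest was Chr12:6762977-6763218, at −log10 p of 14.5 and 19.6 in WT control and 86.8 in H49 control replicate 2, with a mean percentile of 88.3 ± 5.45 (SD, n = 3). It was also the only member of the 5 named whose percentile was above 80 in each calling library. The next were Chr12:27058403-27058759 (mean percentile 52.2), Chr12:11904471-11904734 (52.0), Chr12:24451037-24451465 (49.03) and Chr12:2468023-2468602 (48.0), all near the middle of their lists on average. The rule still required 3 libraries when 1 was left out. A region called in exactly 3, as were the 5 named, is thus lost by construction without any of them. The count was 1 without WT control replicate 1 and 2 without WT control replicate 2. It was 3 without H49 control replicate 1 and 2 without H49 control replicate 2. Leaving out a desiccation library makes the rule looser: the count was 13 without WT desiccation replicate 1 and 13 without H49 desiccation replicate 1.

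In the opposite direction, 0 chromosome 12 regions were called in at least 3 desiccation libraries and in 0 control libraries, against 0.389% of all regions. With a control library left out the rule is looser, and the count was 3 without WT control replicate 1 and 4 without WT control replicate 2. For genotype, 3 regions met the rule for H49 (0.462%, against 0.247% of all regions) and 0 for WT (against 0.235%). The H49 members were Chr12:13524307-13524522, Chr12:16855486-16855757 and Chr12:12296819-12297086, at mean percentiles of 86.7 ± 4.16, 81.5 ± 4.77 and 73.4 ± 21.0 (SD, n = 3). H49 desiccation replicate 1 and the 2 control libraries of H49 called each of them. Because 3 libraries were still required, the H49 count was 0 by construction without H49 control replicate 1, H49 control replicate 2 or H49 desiccation replicate 1. With a library of the other genotype left out the rule is looser, and the H49 count was 7 without WT control replicate 1. Under the same looser rule the WT count was 2 without H49 control replicate 1, 1 without H49 control replicate 2 and 2 without H49 desiccation replicate 1.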

How the data were processed

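The data were 8 deposited summit lists of anti-OsHOX24 ChIP-seq, 1 per library; inputs (8 samples) were not analysed here. Per the series' design text, NGS QC Toolkit removed poor reads, Bowtie2 placed the rest on rice MSU version 7 and MACS2 called peaks. The submitters' processing notes give MACS2 2.1.1.20160309. The only value deposited with a summit is read as −log10 of the peak caller's p-value, from the authors' MACS2 summit format and a lowest value near 3 in each list; −log10 of a q-value is possible too. Percentiles within a list use its order only. Read depth is unknown, so there are no counting intervals. Absence from a list means not called, which is not the same as unbound. No source used here says whether the Bedops step of the design text entered the lists; the highest peak number equals the length of each list, and 1 of the 9348 peak names of WT control replicate 1 could not be read.

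Summits outside the 12 nuclear chromosomes (56) and those at chromosome 12 positions 5600001 to 5700000 (119) were dropped. Windows of 100 bp on each side of a summit were merged where they overlapped. A region was called in a library that had a summit in it. Shares were compared with exact permutation tests (70 ways to split 8 libraries into 4 and 4), and constancy over libraries with exact sign-flip tests. Benjamini-Hochberg adjustment was used throughout, with 0.05 as the threshold. The calculations used Python 3.11.15, numpy 2.4.6 and pandas 2.3.3, and were tested on simulated lists. Replicate numbers were checked for pairing: the differences between replicates 1 and 2 over bins of 100 kb of all chromosomes correlated between every 2 groups (Pearson r from 0.281 to 0.805), so the numbers were treated as pairing the libraries in an alternative test. Whether replicates were separate plants is not in the labels; the p-values therefore measure sample-to-sample spread, possibly technical.

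The regions, stretches and comparisons were chosen with earlier results of these data known. Named regions are the 10 strongest common to all 8 libraries by mean percentile, the 5 most often called in each stretch and one-sided set, and the densest bins; in the stretch near 13.3 Mb the rule also took Chr12:13388503-13388729 and Chr12:13395533-13395770. Positions follow the deposited lists on MSU version 7, written 1-based. Genes and sequence at the regions were not analysed here, and neither was the motif comparison planned for them, because the gene table at hand is of another assembly.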

Additional observations from a re-analysis of the deposited data

Results flagged for a closer look

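In H49 control replicate 1, 19.4% of the chromosome 12 summits lay in the 400-kb stretch from 20.4 to 20.8 Mb. The other 3 control libraries had 7.59% to 9.09% there, so this library stood apart from the rest of its treatment by most of the range of the 4. By replicate number, replicates 1 had 7.59%, 19.4%, 46.4% and 22.0% and replicates 2 had 9.05% to 12.6%, over both treatments. The ranges overlapped, as the lowest share was that of WT control replicate 1. The part of replicate number in the value was not tested. The 4 control libraries come from 2 genotypes, and 14 groups of 4 were examined in this way, of which chance singles out about 1 in 20.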

How the results depend on the processing

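With the replicate block the differences themselves are unchanged and no call changed: exact permutation p was 0.0556 for the chromosome 12 share and 0.0556 for the 400-kb stretch by treatment, 0.889 for the share by genotype, 0.667 for the stretch near 13.3 Mb and 0.222 outside both stretches. The difference from the length share reversed to 2.05 in the upper 50% of each list and to 0.317 with the 2000 strongest summits. Without the dense places it was −4.15 and passed, but it is lowered by construction, so nothing is concluded from it. The treatment difference near 13.3 Mb reversed to −3.94 with the 2000 strongest. The cause of these reversals was not tested. Without the dense places of chromosome 12, with those of other chromosomes kept, recurrence no longer passed, at 1.89, and the regions in all 8 libraries numbered 15, both lowered by construction. Control-only regions numbered 1 in the upper 50% and 1 with the 2000 strongest, desiccation-only regions 1 and 2 (and 1 with windows of 250 bp), WT-only regions 1 in the upper 50% and H49-only regions 5 with the 2000 strongest. Moving the stretch near 13.3 Mb up by 1 bin gave 2.11 there and 0.605 outside both stretches, with no call changed.

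Leaving out each library in turn gave ranges of 1.95 to 2.79 for the chromosome 12 share by treatment, −0.540 to 1.07 by genotype, 4.25 to 15.8 for the 400-kb stretch, −1.30 to 4.84 near 13.3 Mb, 0.517 to 1.22 outside both, −1.58 to −0.890 for the length share (passing, exact sign-flip permutation p = 0.0312, only without WT desiccation replicate 2) and 19.4 to 26.0 for recurrence. Counts ranged from 40 to 59 for regions in every library, 1 to 13 for control-only and 0 to 4 for desiccation-only regions. They ranged from 0 to 7 for H49-only and 0 to 2 for WT-only regions. A one-sided region still needed 3 libraries when 1 was left out, so these one-sided ranges are partly set by the rule. Of 100 values for the 25 named regions, 95 kept a number of calling libraries within 1.5 times; the other 5 values belonged to control-only regions. The merging distance decides some neighbours: 17 pairs of neighbouring summits lay up to 50 bp inside the merging distance and 12 up to 50 bp beyond it, and windows of 250 bp gave 563 regions. Depth is unknown, so how many weak summits the shorter lists missed was not tested.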
